A study of Mus musculus with 2 samples.

Results

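The polo-like kinases are a family of serine/threonine kinases, and their 5 genes, Plk1 to Plk5, were taken by symbol from the gene tables of 2 sciatic nerve libraries, where all 5 of them were listed among 22093 usable genes. Libraries were made from total RNA of nerve taken from mice at postnatal day 7, with 1 library from Tsc1cKO mice and 1 from control mice, both of mixed strain. Tsc1cKO is taken to mean a conditional knockout of Tsc1, whose product joins Tsc2 in a complex that holds back mTORC1, a kinase complex that promotes growth. The labels give the control genotype as control and no more. The names of the deposited tables, which are not part of the labels, read as Tsc1 c/+ with Dhhcre for control and Tsc1 c/c with Dhhcre for Tsc1cKO. On that reading both libraries carry the Cre, driven by the desert hedgehog promoter that is active in the Schwann cell lineage, and control Schwann cells may themselves have lost 1 copy of Tsc1. Whole nerve also holds fibroblasts, vessels, immune cells and perineurial cells. The number of animals behind each library is not given in the sources used here.

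Polo-like kinases share a kinase domain and a polo-box region that docks them on phosphorylated partners, and they are best known as drivers of the cell cycle. Plk1 acts from mitotic entry to cytokinesis, Plk4 starts centriole duplication, and Plk2 and Plk3 were found as early genes induced by serum, growth factors and stress. Plk5 is the least typical member, known mainly from brain, and its human protein lacks most of the kinase domain. In the developing nerve Schwann cells divide and then leave the cell cycle to myelinate axons, so the comparison asks how the kinase genes stand in nerve of Tsc1cKO mice, where Tsc1 is taken to be deleted in some of the cells. Published work in cultured cells has also placed the TSC1 protein among the partners of PLK1 and PLK2.

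All 5 genes had higher values in the Tsc1cKO library, by amounts that ran from 1.37-fold for Plk3 to 6.74-fold for Plk5 on the FPKM scale. FPKM scales mapped fragments by transcript length and by the library's mapped total, so levels of different genes can be compared. Differences are Tsc1cKO minus control in log2(FPKM + 1), and they understate the change of low genes. There is 1 library per group, so no difference has a replicate check, no test of genotype was possible, and "higher" and "lower" describe these libraries. Sequencing depth is unknown. Being higher was common, since 67.0% of the 12409 measured genes, those reaching 1 FPKM in one of the libraries or both, were higher in Tsc1cKO by some amount. The median difference of measured genes was 0.20, and dividing the Tsc1cKO values by the median ratio of well expressed genes, 1.18, removed most of it. Values after that division are called centred here. Plk5 belongs to the measured genes only through its Tsc1cKO value, so its direction there follows from the filter, and it is not among the genes measured when centred. The other 4 kinase genes were higher when centred as well, against 49.1% of the genes measured on that scale. At the level of the whole nerve, more cells that express a gene and more RNA per cell cannot be told apart.

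**Figure D1:**
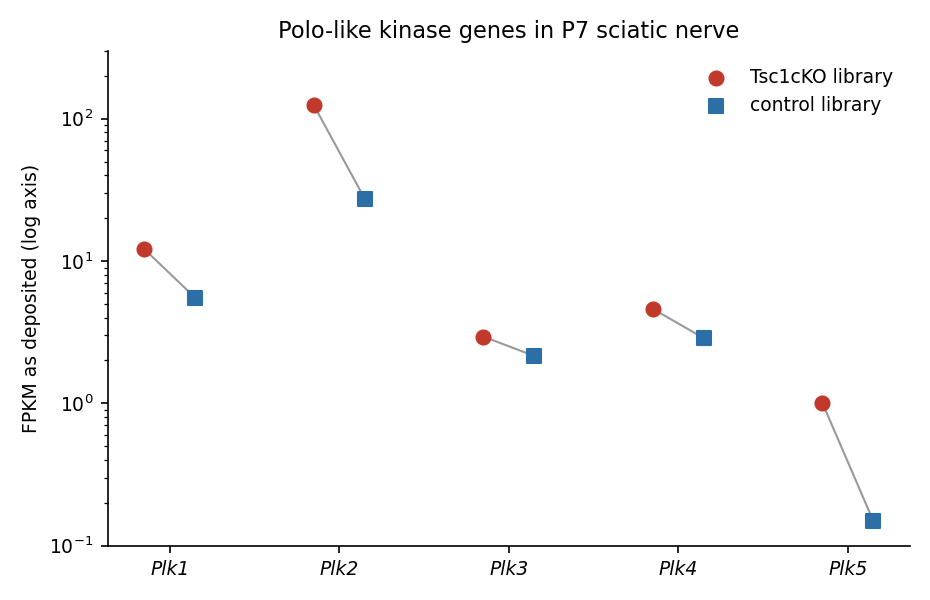
FPKM of the polo-like kinase genes in the Tsc1cKO library (red circles) and the control library (blue squares), on a log axis, with a line joining the values of a gene. Each point is 1 library, so there are no error bars; the red point lies above the blue one for all 5 genes, and the gap is widest for Plk2 and Plk5.

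Plk2 was the most abundant member in both libraries and carried most of the family's FPKM. It lies on chromosome 13 from 111185252 to 111191051 in mm9, the build named for these tables. Plk2 was at 124 FPKM in the Tsc1cKO library and at 27.4 FPKM in the control library, 4.53-fold higher and 3.85-fold higher when centred. Its level exceeded that of 97.2% of usable genes in Tsc1cKO and of 88.6% in control. Plk2 made up 85.7% of the summed FPKM of the 5 genes in Tsc1cKO and 72.0% in control. The family sum was 145 FPKM in Tsc1cKO against 38.1 FPKM in control, a ratio of 3.80, and the sum of the other 4 genes was 20.7 FPKM in Tsc1cKO against 10.7 FPKM in control, a ratio of 1.93.

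Plk1, whose product is needed for bipolar spindles, chromosome segregation and cell division, was second in both libraries. It lies on chromosome 7 from 129302951 to 129313389. Plk1 was at 12.1 FPKM in Tsc1cKO and 5.52 FPKM in control, 2.20-fold higher and 1.87-fold higher when centred. Plk2 was thus 10.2 times Plk1 in Tsc1cKO and 4.97 times Plk1 in control.

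Plk4, the centriole kinase, lies on chromosome 3 from 40603873 to 40620805 and was at 4.61 FPKM in Tsc1cKO and 2.87 FPKM in control, 1.60-fold higher and 1.36-fold higher when centred. Plk3, on chromosome 4 from 116801260 to 116806557, was at 2.94 FPKM in Tsc1cKO and 2.15 FPKM in control, the smallest ratio of the family at 1.37, or 1.16 when centred. The span of Plk3 overlaps that of Tctex1d4 and no use of strand is stated, so fragments of these genes may not have been kept apart and the value of Plk3 is uncertain. None of the other 4 kinase genes overlapped another entry.

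Plk5, on chromosome 10 from 79819204 to 79828234, was the lowest member, at 1.01 FPKM in Tsc1cKO and 0.149 FPKM in control. The ratio of 6.74 is the largest of the family but rests on a control value near the bottom of the measured range, since 0.363% of measured genes were lower than Plk5 in the control library. Plk5 counted as measured only through its Tsc1cKO value, and when centred, at 0.853 FPKM in Tsc1cKO, it no longer reached 1 FPKM in either library.

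The order of levels was the same in both libraries, with Plk2 above Plk1, then Plk4, Plk3 and Plk5. No spread within a group exists to say whether neighbours in this order differ. The closest neighbours were Plk4 and Plk3, with a ratio of 1.57 in Tsc1cKO and 1.33 in control. The targeted gene, Tsc1, stood at 2.28 FPKM in Tsc1cKO and 3.76 FPKM in control, the only direction opposite to the kinase genes among these 6. That value covers the whole gene and every cell type of the nerve.

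Plk2 and Plk1 were past 2-fold on the log2(FPKM + 1) scale, the rule of size used here, with differences of 2.14 and 1.01. This rule took in 5.03% of measured genes as higher in Tsc1cKO and 3.06% as lower. Plk1 stood just inside the threshold, and its difference was 0.79 when centred, so that Plk2 alone remained past 2-fold there, against 2.89% of measured genes higher and 4.69% lower. The differences of Plk5, Plk4 and Plk3 were 0.80, 0.53 and 0.32, and 0.69, 0.34 and 0.15 when centred.

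Each kinase gene was then ranked among the 500 measured genes nearest to it in mean log2(FPKM + 1). Plk2 ranked 4 from the top, with a larger difference in 3 of its 500 neighbours in level, which ran from 48.98 to 70.3 FPKM and had a median difference of 0.30. Plk1 ranked 20, so that 96.2% of genes of similar level had a smaller difference, and the 95th percentile of those genes was 0.93. Plk4 ranked 90 (82.2% below) and Plk3 ranked 144 (71.4% below). Plk2 and Plk1 therefore stood above the 95th percentile for their level, and Plk3 and Plk4 stood below it. The rank of Plk5, 57 (88.8% below), depends on the filter that let it in, since its share was 96.8% without a filter and 67.2% when neighbours were taken on the control level alone, so its place is not settled. When centred, the positions were 99.4% for Plk2, 96% for Plk1, 81.6% for Plk4 and 71.2% for Plk3. Centring divides all Tsc1cKO values by the same number, so a gene and its neighbours shift nearly alike. It could therefore hardly move a position and is no check on these ranks. Ranks describe these libraries, since genes are not replicates.

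**Figure D2:**
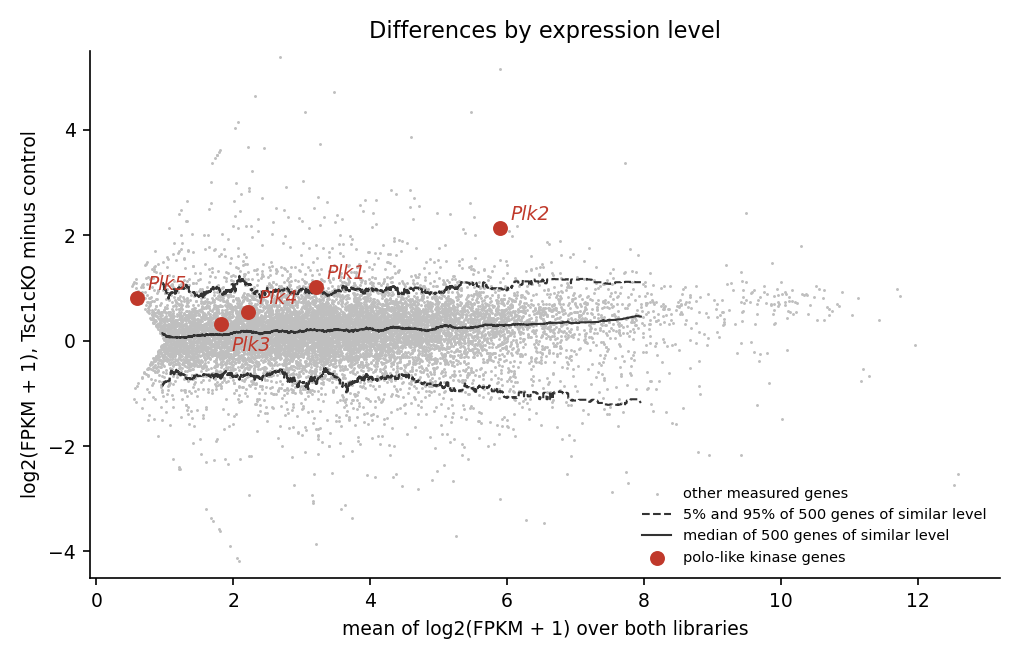
Difference between the Tsc1cKO and control libraries for each measured gene (grey, 12409 genes with the kinase genes in red) against the mean of log2(FPKM + 1); 6 genes lie outside the plotted range. Lines are the running median and the 5% and 95% limits of 500 genes of similar level; Plk2, at 2.14, lies far above the upper limit, Plk1, at 1.01, just above it, and Plk3 and Plk4 between the median and that limit.

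Genes with the pattern closest to each kinase were taken as the 3 with the nearest difference among those 500 genes. With only 2 libraries this is a match of a pair of values and nothing more. Plk1 was matched by Fam189b, by Fabp3, which encodes a fatty acid binding protein, and by Tpx2, which encodes a spindle factor that activates Aurora A. Tpx2 was at 12.7 FPKM in Tsc1cKO and 5.67 FPKM in control. Plk2 was matched by Plekho1 (149 FPKM in Tsc1cKO and 32.3 FPKM in control), Uap1l1 and Pla2g7, the last of which encodes an enzyme that inactivates platelet-activating factor. Plk3 was matched by Zfp938, Fancl and Myo1f, of which Fancl overlaps Vrk2. Plk4 was matched by Pldn, Eef1a2 and Pcdhga11, the last being uncertain because it shares its locus with 22 other entries. Plk5 was matched by Zfpm2, Chst8 and Insl6, each below 0.5 FPKM in control. Like Plk5, each of them reached 1 FPKM only in Tsc1cKO, so the filter fixed the direction that they share with it.

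The promoters of the 2 genes past 2-fold are shown because they hold different known elements. All 5 genes matched a RefSeq promoter of build GRCm38.p6, a window of 300 bases with 250 before and 50 after the annotated start. Letters searched on both strands were TTTGAA, the cell cycle homology region bound by MuvB complexes, TGACGTCA, the full cyclic AMP response element, TGACG, its shorter form, which lies inside the full element on both strands, CCAAT, and TGANTCA, the AP-1 element. Bases before the start of Plk1 are chr7:122159185-122159434 and those of Plk2 are chr13:110394794-110395043, both on the plus strand, with CCAAT in capitals in Plk1 and TGACGTCA in capitals in Plk2. The Plk1 site is a stretch of 30 bases after the start, chr7:122159451-122159480 on the plus strand, with TTTGAA in capitals.
Plk1 upstream: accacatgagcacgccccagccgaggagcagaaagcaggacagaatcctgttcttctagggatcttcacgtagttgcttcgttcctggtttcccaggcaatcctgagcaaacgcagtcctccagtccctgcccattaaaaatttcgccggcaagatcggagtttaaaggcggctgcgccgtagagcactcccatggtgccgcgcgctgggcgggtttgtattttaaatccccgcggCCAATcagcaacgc
Plk1 site: ttcccagcgccgcgTTTGAAttcggggagg
Plk2 upstream: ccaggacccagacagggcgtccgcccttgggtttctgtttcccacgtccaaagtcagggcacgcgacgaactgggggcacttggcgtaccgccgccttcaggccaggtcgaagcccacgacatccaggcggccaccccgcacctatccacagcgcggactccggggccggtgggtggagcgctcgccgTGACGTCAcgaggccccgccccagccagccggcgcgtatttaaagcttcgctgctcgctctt

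TTTGAA was present in 1 of the 5 windows, that of Plk1, where it began 31 bases into the transcript, and in 17.9% of 32851 mouse promoter windows. TGACGTCA was present in the window of Plk2, from 62 bases before the start, and in 1.79% of all windows. TGACG was present in the windows of Plk2, Plk3 and Plk4, 3 of 5 genes, against 20.8% of all windows. CCAAT was found for Plk1 and Plk5, against 37.4% of windows, and TGANTCA for none of the 5, against 7.81%. The elements were chosen with the sequences in view, so the shares of all windows do not show how unusual a match is. A match is a run of letters and was not measured as a bound site in these nerves.

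Partners of Plk1 at mitotic entry, namely its activators, its targets and the kinases that oppose them, were higher together with it. All 12 listed genes were measured and higher in Tsc1cKO, 4 of them past 2-fold, and their median difference was 0.72 against 0.20 for all measured genes (0.51 against −0.01 when centred). Counts of this and the following lists stand beside the shares over all measured genes given above. These were 67.0% higher and 5.03% past 2-fold upward as deposited, and 49.1% and 2.89% when centred. Centred counts and medians of the lists cover genes measured as deposited, whereas the centred shares cover genes that reach 1 FPKM after the division. Ccnb1, encoding cyclin B1, was at 15.7 FPKM in Tsc1cKO and 5.69 FPKM in control, and Cdk1, its kinase, at 17.5 FPKM in Tsc1cKO and 6.62 FPKM in control. Ccnb2, encoding cyclin B2, was at 20.8 FPKM in Tsc1cKO and 8.61 FPKM in control. Aurka, whose product Aurora A phosphorylates the activation loop of Plk1, was at 7.39 FPKM in Tsc1cKO and 3.16 FPKM in control, a difference of 1.01 like that of Plk1. Plk1 had a larger difference than 8 of the 12.

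Docking proteins of Plk1 at kinetochores, centrosomes and the spindle midzone were also higher. Of 19 listed genes 18 were measured and these 18 were higher, 3 of them past 2-fold, and their median was 0.80 (17 higher and none past 2-fold when centred, with a median of 0.61). Ercc6l reached 1 FPKM only in Tsc1cKO, and the other 17 had a median of 0.79. Bub1, encoding the checkpoint kinase that recruits Plk1 to kinetochores, was at 4.13 FPKM in Tsc1cKO and 1.53 FPKM in control. Prc1, encoding the microtubule bundler that brings Plk1 to the midzone, was at 18.8 FPKM in Tsc1cKO and 8.30 FPKM in control, and Cep55, for the abscission factor of the midbody, at 5.58 FPKM in Tsc1cKO and 2.09 FPKM in control. Kif20a, encoding a midzone kinesin, was at 9.42 FPKM in Tsc1cKO and 4.34 FPKM in control, a value made uncertain by overlap with Brd8 and Cdc23. The most abundant member, Nudc, encoding a dynein-associated protein, was at 143 FPKM in Tsc1cKO and 78.0 FPKM in control. Plk1 itself exceeded 15 of these 18 in difference.

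Among other mitotic kinases, Plk1 took a middle place. Of 12 listed genes 11 were measured, 10 of them were higher (9 when centred), 5 of them past 2-fold (2 when centred), and the median was 0.72 (0.55 when centred). Among those past 2-fold as deposited, Aurka and Cdk1 also belong to the mitotic entry list and Bub1 to the docking list, so they are counted again here. Other lists of this report share genes as well, so the lists are not separate sets. Differences were larger than that of Plk1 for 5 of the 11 and smaller for 6. Of the larger ones, Aurka (1.01) and Bub1 (1.02) nearly tied with Plk1 (1.01), so the split turns on gaps too small to order. Aurka also enters the count for the mitotic entry list and Bub1 that for the docking list. Nek2, encoding a kinase of centrosome separation, was at 5.84 FPKM in Tsc1cKO and 1.92 FPKM in control, and Aurkb, the kinase of the chromosomal passenger complex, at 13.6 FPKM in Tsc1cKO and 5.44 FPKM in control. Nek9, which relays Plk1 activity at centrosomes and is also present in resting cells, had the highest mean level, at 27.7 FPKM in Tsc1cKO and 19.6 FPKM in control.

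Genes of centriole duplication, the process that Plk4 starts, were higher by less. Many of them are low, and the log2(FPKM + 1) scale understates the change of low genes. With 0.1 in place of 1 added to each FPKM value, the median was 0.50 for this list. It was then 0.83 for mitotic entry, 0.93 for docking proteins and 1.06 for other mitotic kinases. Of 15 listed genes 14 were measured, but 5 of these, Stil, Sass6, Cenpj, Cep135 and Rttn, reached 1 FPKM only in Tsc1cKO, so the filter fixed their direction. The other 9 were higher (6 when centred), against 67.0% of measured genes (49.1% when centred), none of them by 2-fold, and their median was 0.38. The median of the 14 was 0.37 (0.19 when centred, or 0.21 over those that still reached 1 FPKM when centred). Stil, encoding the activator of Plk4, was at 1.76 FPKM in Tsc1cKO and 0.824 FPKM in control, and Cep152, which encodes the scaffold that recruits Plk4, was at 2.05 FPKM in Tsc1cKO and 1.08 FPKM in control. Cenpj, encoding a centriole elongation factor, was at 1.87 FPKM in Tsc1cKO and 0.904 FPKM in control. Cep57, for a pericentriolar scaffold protein, was at 9.36 FPKM in Tsc1cKO and 5.30 FPKM in control. Cep120, which promotes centriole elongation and was the most abundant of the list, was at 10.96 FPKM in Tsc1cKO and 10.3 FPKM in control, a difference of 0.08 that was −0.14 when centred. Plk4 exceeded 10 of the 14 in difference.

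Factors that act on promoters of cell cycle genes, the FoxM1, B-Myb, MuvB and E2F set, stood higher for 19 of 20 genes, and their median was 0.39 (15 genes and 0.18 when centred). E2f1 was past 2-fold as deposited, at 12.4 FPKM in Tsc1cKO and 5.44 FPKM in control, and was at 0.84 when centred. Foxm1, encoding the factor that switches on Plk1 in G2, was at 10.6 FPKM in Tsc1cKO and 5.85 FPKM in control, but shares its span with another entry. E2f2 was at 2.83 FPKM in Tsc1cKO and 1.32 FPKM in control, and E2f8, for an atypical E2F, at 3.72 FPKM in Tsc1cKO and 1.998 FPKM in control. Tfdp1, the partner subunit of the E2Fs, had the highest mean level at 53.2 FPKM in Tsc1cKO and 41.95 FPKM in control.

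Parts of the ubiquitin ligases that degrade polo-like kinases had no common direction beyond that of all genes. Of 11 measured genes 9 were higher, and 4 when centred, with a median of 0.20 that became −0.02 when centred. The 2 members past 2-fold as deposited, none when centred, belong to the anaphase-promoting complex pathway, whose targets include Plk1. Ube2c, its ubiquitin-conjugating enzyme, was at 34.9 FPKM in Tsc1cKO and 15.8 FPKM in control, and Cdc20, its activator, was at 28.7 FPKM in Tsc1cKO and 13.8 FPKM in control, with Elovl1 overlapping. Cul1, the scaffold of SCF ligases, was at 31.0 FPKM in Tsc1cKO and 23.9 FPKM in control. Skp1a, their adaptor, was the most abundant of the list at 121 FPKM in Tsc1cKO and 115 FPKM in control. Fbxw7, an F-box subunit, was at 3.90 FPKM in Tsc1cKO and 2.97 FPKM in control and overlaps another entry.

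**Figure D3:**
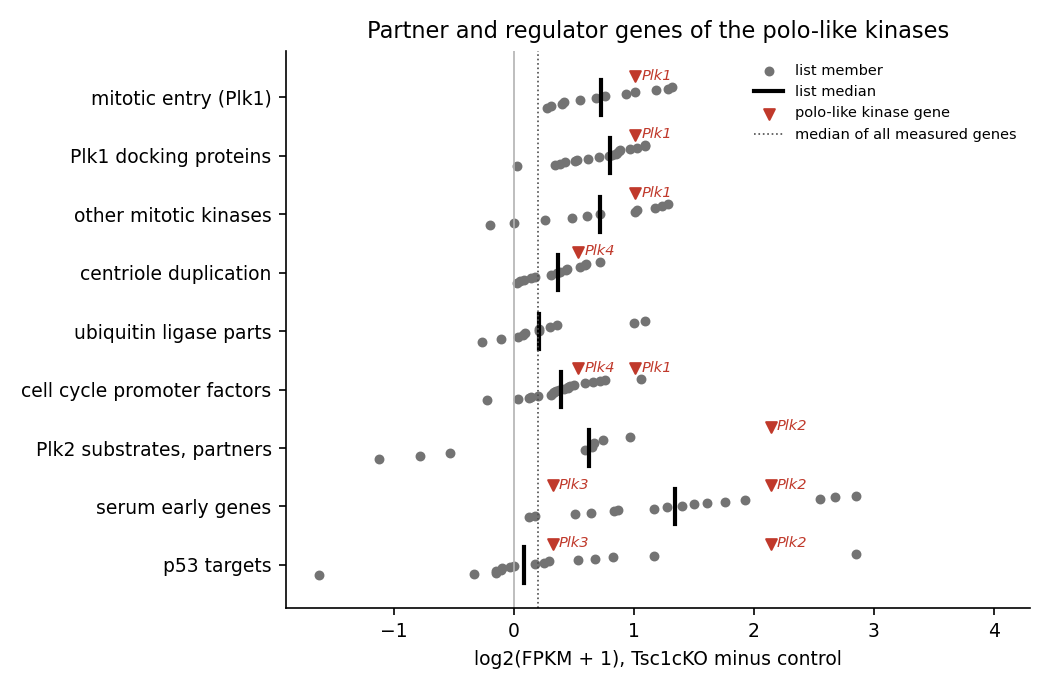
Differences between the Tsc1cKO and control libraries for measured members of 9 gene lists (grey points), with the list median (black bar), the kinase genes set beside the lists of their partners (red triangles), and the median of all measured genes, 0.20 (dotted line). The medians of the mitotic lists lie right of the dotted line, on the side of Plk1, the median of the centriole list lies closer to it, and Plk2 lies among the upper serum early genes whereas Plk3 lies at their lower end.

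Serum and stress induced early genes, the class in which Plk2 and Plk3 were first described, were higher as well, and the 2 kinases took opposite ends of the list. Of 17 listed genes 16 were measured and higher (14 when centred), 10 of them past 2-fold (9 when centred), and their median was 1.34 (1.11 when centred), against 67.0% higher and 5.03% past 2-fold among measured genes. Fosb reached 1 FPKM only in Tsc1cKO, and without it 9 of 15 were past 2-fold. Fos was at 63.1 FPKM in Tsc1cKO and 7.86 FPKM in control, Atf3, encoding a stress-induced factor, at 37.6 FPKM in Tsc1cKO and 5.04 FPKM in control, and Egr3 at 62.3 FPKM in Tsc1cKO and 9.78 FPKM in control. Junb, encoding an AP-1 subunit, was at 24.9 FPKM in Tsc1cKO and 5.80 FPKM in control. Nr4a1, the orphan receptor gene, was at 82.9 FPKM in Tsc1cKO and 45.1 FPKM in control. Differences were larger than that of Plk2 for 3 of the 16 and larger than that of Plk3 for 14. These genes also respond to handling and dissection, and their part in the value of Plk2 was not tested.

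Targets of p53, a class that includes Plk2 and Plk3, split evenly, with 8 of 16 measured genes higher and 8 lower and a median of 0.09 (7 higher and a median of −0.08 when centred). Fas counted among the lower genes only through its control value. Gadd45a, encoding a growth arrest and stress protein, was at 52.2 FPKM in Tsc1cKO and 6.37 FPKM in control, and Bax, which promotes apoptosis, was at 135 FPKM in Tsc1cKO and 59.6 FPKM in control. Trp53inp1, encoding a stress-induced p53 partner, was at 10.8 FPKM in Tsc1cKO and 5.69 FPKM in control. Cdkn1a, which encodes the cell cycle inhibitor p21, went the other way, at 59.1 FPKM in Tsc1cKO and 185 FPKM in control. Gadd45a was the 1 gene of the 16 with a larger difference than Plk2.

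Substrates and partners of Plk2, most of them known from neurons, moved both ways. Of 11 listed genes 8 were measured, with 5 higher and 3 lower on both scales, a share near the 67.0% of all measured genes as deposited, and Cenpj was among the 5 only through its Tsc1cKO value. The list median was 0.62 (0.43 when centred), and 1 gene was at least 2-fold lower (2 when centred). Sipa1l1, which encodes the Rap regulator SPAR that Plk2 marks for degradation, was at 8.01 FPKM in Tsc1cKO and 18.6 FPKM in control, 2.33-fold lower. Rap2b, for a small GTPase, was at 18.5 FPKM in Tsc1cKO and 8.98 FPKM in control, and Npm1, encoding nucleophosmin, was at 219 FPKM in Tsc1cKO and 130.1 FPKM in control. Tsc1, the gene targeted by design, is among the 3 lower genes of this list. Its direction is therefore no information on the substrates of Plk2.

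The cell type markers bear on what whole nerve values can show. Schwann cell markers were present in both libraries, 9 of them measured with a summed level of 2339 FPKM in Tsc1cKO and 2922 FPKM in control, and 6 of the 9 were higher as deposited (4 when centred). The lower sum in Tsc1cKO came from Prx, the gene of the myelin protein periaxin, at 320 FPKM in Tsc1cKO and 1445 FPKM in control, and the other 8 summed to 2018 FPKM in Tsc1cKO and 1478 FPKM in control. Fibroblast markers were higher in 1 of 6 cases, with sums of 4808 FPKM in Tsc1cKO and 7110 FPKM in control, and all 6 endothelial and all 4 perineurial markers were lower in Tsc1cKO. Macrophage markers were higher in 6 of 8 cases (4 when centred), with sums of 252 FPKM in Tsc1cKO and 186 FPKM in control. All 5 skeletal muscle markers were higher on both scales, with sums of 583 FPKM in Tsc1cKO and 284 FPKM in control. Of 4 neuron markers, 2 were measured, with the 1 higher gene being Tubb3, at 25.2 FPKM in Tsc1cKO and 3.99 FPKM in control, and Rbfox3 was listed at 0 in Tsc1cKO. Red blood cell markers summed to 684 FPKM in Tsc1cKO and 369 FPKM in control, with the globin genes uncertain because near-identical copies overlap them. Sums were 126 FPKM in Tsc1cKO and 136 FPKM in control for pericyte and smooth muscle markers, 40.9 FPKM in Tsc1cKO and 45.2 FPKM in control for T cell and neutrophil markers, and 82.7 FPKM in Tsc1cKO and 77.2 FPKM in control for adipocyte markers. The 5 melanocyte markers summed to 9.53 FPKM in Tsc1cKO and 6.79 FPKM in control. Dct was at 4.98 FPKM in Tsc1cKO and 0.818 FPKM in control. It reached 1 FPKM only in Tsc1cKO, so the filter fixed its direction among measured genes. Mitf was at 4.38 FPKM in Tsc1cKO and 5.72 FPKM in control, and Mlana and Slc45a2 were listed at 0 in both libraries. The part of muscle RNA or of any shift in cell types in the values of the kinase genes was not tested.

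**Figure D4:**
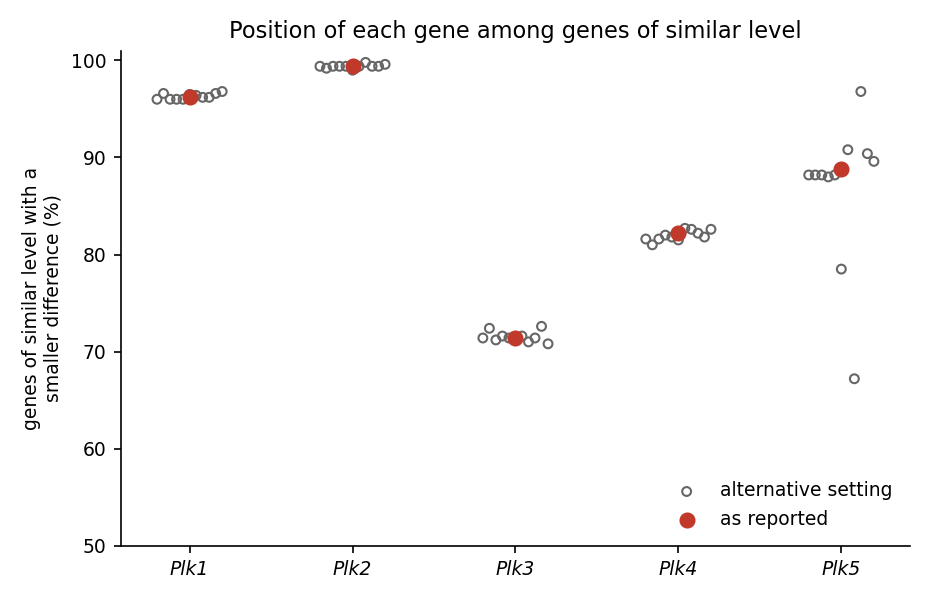
Share of the genes of similar level that had a smaller difference than each kinase gene, as reported (red) and under 11 alternative settings (open circles); the vertical axis starts at 50%. Plk2 stayed between 99% and 99.8%, Plk1 between 96% and 96.8%, Plk4 between 81% and 82.7% and Plk3 between 70.8% and 72.6%, whereas Plk5 ranged from 67.2% to 96.8%. The settings include median, upper quartile and FPKM sum scaling, which shift a gene and its neighbours nearly alike and could hardly move a position. Dropping the filter adds only genes below 1 FPKM in both libraries. Neighbours of Plk1 to Plk4 started at 2.27 FPKM or higher, so that setting could not move these genes.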

How the data were processed

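Each library's deposited table gives a single FPKM value for each gene entry, per the file headers. The names CASAVA, TopHat, Cufflinks and mouse build mm9 are listed, without versions or roles, per the submitters' processing notes; the annotation is not given in the sources used here. Depth is not given and was not recovered from the values, so no counting interval is given. Each table had 22532 entries. The 227 symbols on more than 1 entry were summed, 3 genes with a failed estimate were left out, and 22093 genes remained, of which 12409 had at least 1 FPKM in 1 library or both. Differences used a pseudocount of 1. Centring used genes that reached 5 FPKM in each library. Ranks used the 500 genes nearest in mean level. Calculations were made in Python 3.11.15 with pandas 2.3.3 and checked on simulated data. Named were Tsc1, the kinase genes, up to 4 list members with the largest absolute difference and the most abundant one, and 3 genes of nearest pattern; markers are given mostly as sums. A gene that meets this rule is not reported here. The kinase genes, 9 lists and 12 marker lists were chosen from general knowledge with earlier results of these data known, and the promoter elements with the sequences in view. List entries that matched no gene were not analysed here. With 1 library per group no test was run.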

Additional observations from a re-analysis of the deposited data

How the results depend on the processing

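The differences of Plk2, Plk3 and Plk4 kept their direction and their side of 2-fold under pseudocounts of 0.1 and 5 and under median, upper quartile and FPKM sum scaling, with Plk2 between 1.91 and 2.18. Plk1 dropped below 2-fold with a pseudocount of 5 (0.70), median scaling (0.79), upper quartile scaling (0.85) and sum scaling (0.81). Under each of these 4 settings, and with a threshold of 3-fold, the count of kinase genes past it was 1. Plk5 passed 2-fold with a pseudocount of 0.1 (2.15), and stood at 96.8% of genes of similar level without a filter. Over all measured genes 624 were at least 2-fold higher as deposited and 355 after median scaling. With a pseudocount of 5 the mitotic entry, docking and other mitotic kinase lists had 0 members past 2-fold, against 4, 3 and 5 as reported. Of all checks on list counts, 130 stayed within 1.5 times and 38 did not, most of the latter with scaling or a pseudocount of 5. Lists with 0 members past 2-fold as reported, such as the centriole list and most marker lists, count among the 130 when they stayed at 0. Their counts could not fall, so the 130 overstates how stable the counts were. The docking median was 0.41 with a pseudocount of 5, and the perineurial marker median was −0.60, −0.54 and −0.59 with median, upper quartile and sum scaling. List medians changed sign as follows. Ubiquitin ligase parts were at −0.0221 with median and −0.00766 with sum scaling. Targets of p53 were at −0.0825, −0.0432 and −0.0729 with median, upper quartile and sum scaling and at −0.00357 without a filter. Schwann cell markers were at −0.0203 with median and −0.00516 with sum scaling. Adipocyte markers were at −0.0748, −0.0183 and −0.0609 with the same 3 scalings. Neuron markers were at −0.0637 and melanocyte markers at −0.0954 without a filter, and melanocyte markers at −0.32 with a filter of 5 FPKM. Leaving out genes that overlap another entry was chosen after seeing the data. The planned comparison of confidence bounds was not run because the tables used here give a single value per gene. No paired analysis was possible because each group has 1 library. Unknown depth limits the low values most, those of Plk5 and Plk3.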
